A study of Homo sapiens with 40 samples.

Results

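The comparison covers the late stage of 2 knockdowns in H1 cells, an established human embryonic stem cell line: 3 arrays with NANOG shRNA set against 3 arrays with OCT4 shRNA, taken on days 4, 5 and 6. They were chosen by title and day, and make up 6 of the 40 arrays in the series. Both groups were grown on Matrigel in mTeSR medium without a feeder layer named in the labels, and both received lentivirus, with polybrene added to help it enter. They differ by the target of the short hairpin RNA (shRNA), a small RNA that lowers its target messenger. H1 arrays with SOX2 shRNA on the same days (n = 3) entered the fit, where they add to the estimate of spread, the day term and the filter on dim probes, but are not compared here. The H1 control arrays of the same days (n = 3) carried a control virus and give each gene its level without either knockdown. H9 cells, another embryonic stem cell line, received OCT4 shRNA over the same days (n = 3). The NANOG shRNA array of day 7 holds values on another scale and was left out. Each group is 1 time course of 1 transduction as far as the labels say, so the 3 days stand in for replicates, and p-values measure the scatter of days, not of independent cultures. All groups are bulk cultures, in which fewer cells of a type and less RNA per cell cannot be told apart.

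NANOG, OCT4 (gene POU5F1) and SOX2 are transcription factors that hold embryonic stem cells in the pluripotent state, in which every tissue of the embryo can still be formed. Cells that leave this state without extraembryonic signals tend to take a neural course, marked by SOX2, ZIC and OTX2. Under bone morphogenetic protein (BMP) signals, human embryonic stem cells instead activate genes of trophectoderm, the outer layer that founds the placenta, and of amnion, the membrane around the embryo, such as TFAP2A, GATA3, HAND1 and keratins.

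Levels are log2 intensities of Illumina bead arrays. The authors' deposited values of the H1 arrays used were already quantile normalized. Differences are NANOG shRNA minus OCT4 shRNA, so a positive difference means a higher level with NANOG shRNA. A gene is called where limma gave a Benjamini-Hochberg adjusted p under 0.05 over the 12543 genes tested. The background level was 6.57 on the log2 scale, and where all 3 arrays of 1 group lay below it a fold is given as "at least". Of 7 human embryonic stem cell markers, 6 were tested (TDGF1 was not), and their summed intensity was 25261 to 31788 with NANOG shRNA and 7503 to 19963 with OCT4 shRNA, against 36560.5 to 39787 with control virus. LIN28A, an RNA-binding protein of early embryonic cells, was at 13.66, 13.67 and 13.56 with NANOG shRNA and at 13.58, 12.94 and 12.40 with OCT4 shRNA.

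The targeted genes were read first. NANOG (chr12:7789402-7799146 in GRCh38.p14, the assembly of the RefSeq gene table) was at 6.99, 6.72 and 6.62 on days 4, 5 and 6 with NANOG shRNA and at 7.31, 6.88 and 6.25 with OCT4 shRNA, against 9.02, 8.87 and 8.31 with control virus. Its levels overlapped between the knockdowns, with a log2 difference of -0.04 ± 0.17 (SE; limma, adjusted p = 0.889), and it was not called. The 95% interval of that difference ran over -0.41 to 0.34, and both groups lay close to background, which limits what can be read from it. POU5F1 (chr6:31164337-31170682) was at 12, 11.61 and 10.95 with NANOG shRNA and at 7.17, 6.75 and 6.77 with OCT4 shRNA, against 12.57, 12.63 and 12.87 with control virus. It was below control in both, by -1.17 with NANOG shRNA (limma, adjusted p = 0.000822) and by -5.79 with OCT4 shRNA. Every NANOG shRNA array stood above every OCT4 shRNA array, by a log2 difference of 4.62 ± 0.18 (SE; limma, adjusted p = 9.61e-10). SOX2 (chr3:181711925-181714436) was at 12.17, 12.37 and 12.21 with NANOG shRNA, close to the control mean of 12.12, and at 10.04, 8.63 and 7.91 with OCT4 shRNA. Its groups did not overlap either, at a log2 difference of 3.38 ± 0.36 (SE; limma, adjusted p = 6.78e-06). Exact two-sided permutation tests over the 3 against 3 arrays gave p = 0.1 for POU5F1 and SOX2, the smallest this design allows (0.15 after Benjamini-Hochberg adjustment over the 3 genes), and p = 1 for NANOG. An exact sign-flip test over same-day pairs gave 0.25, its smallest value, for POU5F1 and SOX2 and 1 for NANOG. A second SOX2 probe differed by 2.81, while a second POU5F1 probe near background differed by -0.06. A second NANOG probe differed by 0.03. Both knockdowns thus had a NANOG level below control, and their SOX2 and POU5F1 levels lay apart.

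Across the genome the knockdowns differed widely. Of the 12543 genes tested, 5708 (45.5%) were called, 2897 (23.1%) higher and 2811 (22.4%) lower with NANOG shRNA. With day 5 left out in every arm the number called was 2861, of which 2857 were also among the 5708. The median difference over all genes was 0.00 and the median absolute difference 0.29. A difference of at least 2-fold was called for 1063 genes (8.47%), 547 (4.36%) higher and 516 (4.11%) lower with NANOG shRNA, and 1057 of these had the same sign on each of the 3 days. Without day 5, 1010 of the 1063 were still called. Groups that did not overlap were found for 6263 genes (49.9%).

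**Figure D1:**
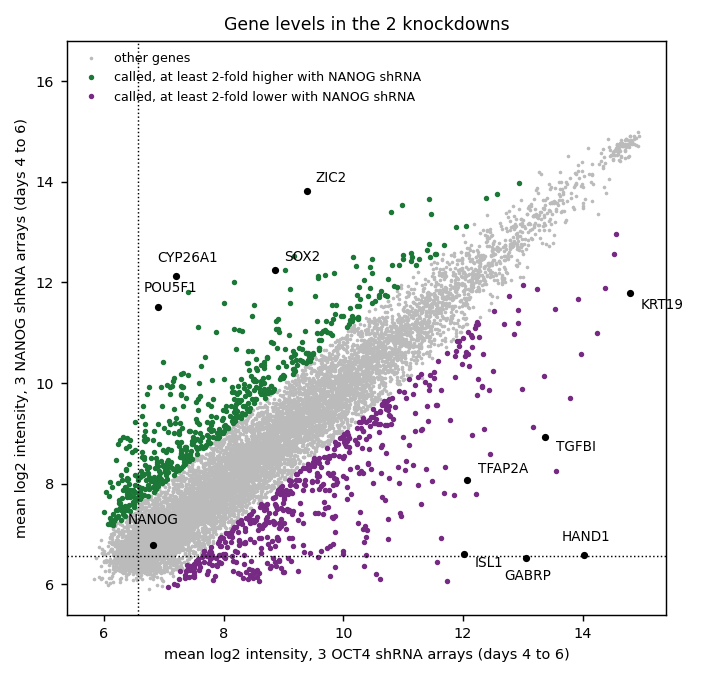
Mean log2 intensity of each of 12543 genes over 3 NANOG shRNA arrays (vertical axis) and 3 OCT4 shRNA arrays (horizontal axis), days 4 to 6, with genes called and at least 2-fold apart in colour (547 higher and 516 lower with NANOG shRNA) and the background level as dotted lines. HAND1, GABRP and ISL1 lie at background with NANOG shRNA and above 12 with OCT4 shRNA, while NANOG lies near background in both.

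The differences built up over the time course. The number of genes at least 2-fold apart between the knockdowns was 4, 52, 184 and 509 over days 0 to 3 and 951, 1370 and 1421 over days 4 to 6, with 1 array per arm and day and no test. The OCT4 shRNA arm held most of the distance from control: on day 6, 498 genes were at least 2-fold from control with NANOG shRNA and 1582 with OCT4 shRNA. Over days 4 to 6, limma called 2203 genes (17.6%) between NANOG shRNA and control and 5934 (47.3%) between OCT4 shRNA and control; both comparisons share the control arrays. On days 0 and 1, with 2 arrays per arm, 1 gene was called between the knockdowns. Of the 12543 tested, 621 had an unadjusted limma p under 0.05, about as many as that threshold passes without any difference. With the difference on days 0 and 1 subtracted, HES4, SMAD3, WLS, MESP1, CCN2, ALDH1A3, RFC2, TOP2A, PMAIP1, PHLDA3, TP53I3 and THY1, described below, lost their calls. The change of the difference from days 0 and 1 to days 4 to 6 was called for 2992 genes (23.9%), including, in the same direction, 512 of the 547 at least 2-fold higher and 482 of the 516 at least 2-fold lower genes.

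**Figure D2:**
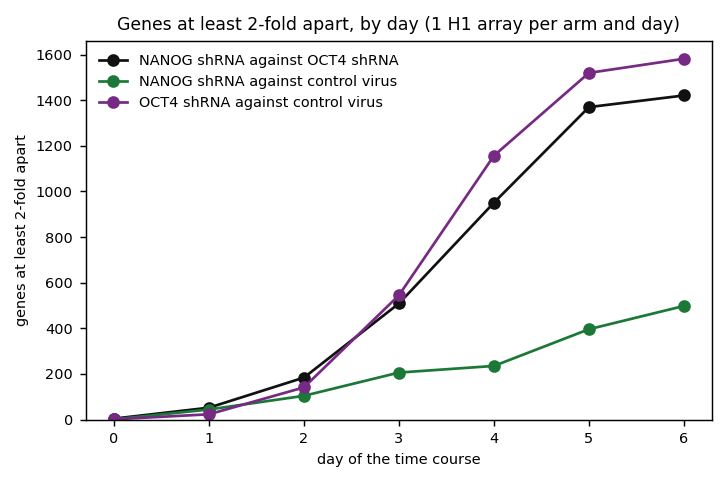
Number of genes at least 2-fold apart on each day from 0 to 6, of 12543 tested, for NANOG shRNA against OCT4 shRNA (black), NANOG shRNA against control virus (green) and OCT4 shRNA against control virus (purple), with 1 array per arm and day. On day 6 the numbers were 1421, 498 and 1582.

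The 12 largest differences in favour of NANOG shRNA included POU5F1 and SOX2, given above. CYP26A1 (chr10:93073475-93077885), an enzyme that breaks down retinoic acid, was at 12.25, 12.40 and 11.73 with NANOG shRNA and at 7.30, 7.20 and 7.08 with OCT4 shRNA, against 10.68, 10.78 and 10.47 with control virus. It was thus above control with one knockdown and below it with the other, 30.5-fold apart (log2 difference 4.93 ± 0.11, SE; limma, adjusted p = 1.76e-11). Other CYP26A1 probes differed by less, at 3.63 and 2.45. ZIC2, a zinc finger transcription factor of the neural plate, was at 13.80, 13.91 and 13.69 with NANOG shRNA and at 10.64, 9.07 and 8.46 with OCT4 shRNA (log2 difference 4.42 ± 0.34, SE; adjusted p = 3.75e-07). FEZ1, which takes part in axon outgrowth, was at 11.80 ± 0.25 and 7.41 ± 0.18 (SD, n = 3 each) in the same order, a log2 difference of 4.39, and its other probes differed by 3.89, 1.40 and, near background, 0.57. SHISA2, an inhibitor of FGF and WNT receptors, SOX21, a transcription factor of neural progenitors, and FABP7, a fatty acid binding protein of radial glia, differed by 3.83, 3.60 and 3.42. All 3 were above control with NANOG shRNA (by 2.10, 1.16 and 1.47) and below it with OCT4 shRNA (by -1.73, -2.44 and -1.95). POLR3G, a subunit of RNA polymerase III enriched in stem cells, differed by 3.54 and lay -0.07 from control with NANOG shRNA. The remaining genes among the 12 largest were TMSB15A (3.35), an actin-binding thymosin, ASNS (3.22), which makes asparagine, and BTBD17 (3.16).

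The 12 largest differences in the other direction were led by HAND1 and GABRP. HAND1 (chr5:154474972-154478227), a transcription factor of trophoblast, extraembryonic mesoderm and heart, was at 6.28, 6.70 and 6.75 with NANOG shRNA, above background on 2 of 3 arrays, and at 14.05, 14.13 and 13.86 with OCT4 shRNA, against 6.10, 6.16 and 6.10 with control virus. The groups did not overlap (log2 difference -7.44 ± 0.33, SE; limma, adjusted p = 2.37e-09), and since the NANOG shRNA mean of 6.58 lies at the background level, no fold is given. GABRP, a GABA receptor subunit found in amnion, was at 6.52, 6.56 and 6.49 with NANOG shRNA, below background, and at 12.38, 13.47 and 13.32 with OCT4 shRNA, which is at least 89.5-fold lower with NANOG shRNA. ISL1, a LIM homeodomain factor of amnion and heart progenitors, was at 6.59 ± 0.07 with NANOG shRNA and 12.01 ± 0.29 with OCT4 shRNA (SD, n = 3 each; log2 difference -5.41). TRIM55, a sarcomere protein, EPAS1, a hypoxia-inducible transcription factor, CRH, a hormone also made by placenta, and LUM, a matrix proteoglycan, were at least 35.6-fold, 31.9-fold, 16.6-fold and 15.8-fold lower with NANOG shRNA. ANXA1, a membrane-binding annexin, was at 8.25, 8.25 and 8.25 with NANOG shRNA and at 13.21, 13.81 and 13.66 with OCT4 shRNA, against a control mean of 9.28. IGFBP7, an insulin-like growth factor binding protein, TGFBI and HAPLN1, both matrix proteins, and BAMBI, a decoy receptor that BMP signals induce, differed by -4.72, -4.44, -4.42 and -4.08. A second HAPLN1 probe differed by -2.07.

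**Figure D3:**
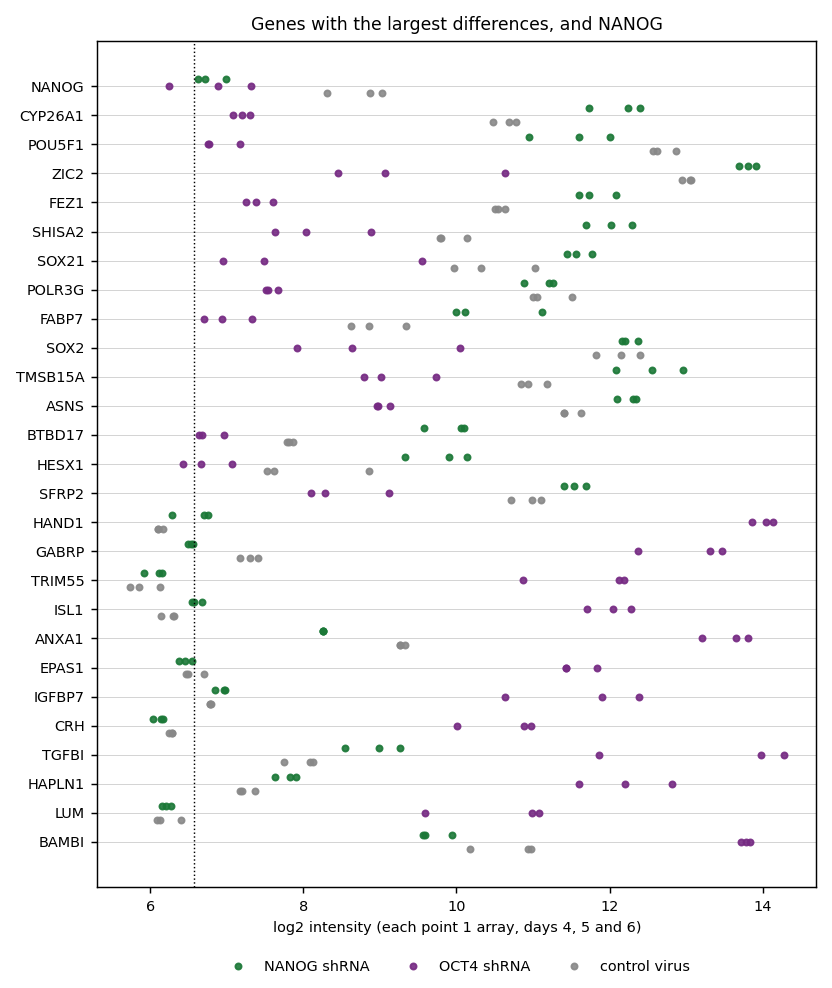
Log2 intensity on each array of days 4, 5 and 6 with NANOG shRNA (green), OCT4 shRNA (purple) and control virus (grey) for NANOG, the 14 named genes with the largest positive and the 12 with the largest negative differences; the dotted line is the background level. Apart from NANOG, the green and purple points of each gene do not overlap. Choosing the largest calls nearly ensures this, and it holds for 49.9% of all genes tested. HAND1 is at 6.28 to 6.75 with NANOG shRNA and at 13.86 to 14.13 with OCT4 shRNA.

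Pluripotency genes were mostly higher with NANOG shRNA. Of 33 tested, 22 were higher, 1 was lower and 10 were not called, with a median difference of 0.63 (0.50 with dim members at their bound) against 0.00 over all genes. The same list was mostly below control in both knockdowns: 19 members were lower and 0 higher with NANOG shRNA (median -0.72), and 26 were lower and 1 higher with OCT4 shRNA (median -1.71). DNMT3B, a DNA methyltransferase of early embryonic cells, was at 12.78, 12.50 and 12.14 with NANOG shRNA and at 11.68, 10.05 and 9.69 with OCT4 shRNA. PHC1, a Polycomb protein, and ETV4, a transcription factor downstream of FGF, differed by 2.48 and 2.11. ZFP42, a zinc finger marker of stem cells, was the member lower with NANOG shRNA, at 10.99 ± 0.09 against 11.87 ± 0.27 with OCT4 shRNA (SD, n = 3 each). NODAL, LEFTY1 and LEFTY2 were not called, at -0.30, -0.17 and -0.10. Leaving out the OCT4 shRNA array of day 4 brought the lower members to 2.

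Forebrain and eye field genes had the highest median of the 32 lists, at 1.57 (1.45 with dim members at their bound). Of 21 tested, 14 were higher with NANOG shRNA, 12 of them at least 2-fold, 2 were lower and 5 were not called. HESX1, a homeobox factor of the anterior neural plate and pituitary, was at 9.32, 10.13 and 9.91 with NANOG shRNA and at 7.06, 6.67 and 6.42 with OCT4 shRNA. OTX2, which specifies forebrain and midbrain, was at 10.16, 10.05 and 9.53 with NANOG shRNA and at 7.14, 7.36 and 6.83 with OCT4 shRNA. PAX6, FEZF1, LHX5 and SIX3, further factors of the anterior neural plate or eye, differed by 2.62, 2.60, 2.19 and 2.15. Against control, 16 of the 21 were higher and 0 lower with NANOG shRNA, and 4 were higher and 6 lower with OCT4 shRNA. The lower members were LMO4 (-1.60), a LIM cofactor, and MEIS2, a homeobox cofactor that the trophectoderm and HOX lists also hold, at 7.21 ± 0.50 with NANOG shRNA and 10.25 ± 0.16 with OCT4 shRNA (SD, n = 3 each). Early neural plate and progenitor genes followed, with 15 of 23 higher, 3 lower (1 without day 5) and a median of 0.73. SOX3, a partner of SOX2 in neural progenitors, was at 9.91 ± 0.16 with NANOG shRNA and 7.32 ± 0.26 with OCT4 shRNA (SD, n = 3 each), and SOX11 and POU3F1 differed by 1.66 and 1.60. HES4, a Notch target, was lower with NANOG shRNA by a log2 of -1.18 (adjusted p = 0.00554), a call lost without day 5 (adjusted p = 0.135).

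Promoter sequences were set beside these groups because OCT4 binds the octamer ATGCAAAT. RefSeq windows (GRCh38.p14) of 300 bases around the gene start were matched for 9991 of the 12543 genes by symbol. The octamer, read on both strands, stood in 12 of 418 windows (2.87%) of genes at least 2-fold higher with NANOG shRNA and in 6 of 388 (1.55%) of those at least 2-fold lower, against 139 of 9991 (1.39%) overall. A TATAAA stood in 7.42%, 9.54% and 5.85% of the same windows, and windows with under 10 CG dinucleotides made up 18.7%, 19.3% and 12.4%. Shares for TGANTCA were 3.83%, 6.96% and 4.25%, and those for CANNTG 61%, 61.6% and 60.3%. In the same order, AGATAA stood in 6.22%, 4.38% and 4.95%, and TAATTA in 2.87%, 2.06% and 1.98%. For CATTGT the shares were 6.94%, 5.41% and 5.96%. TGACAG gave 9.09%, 15.7% and 12.9%, and GGAATG gave 10.8%, 14.4% and 10.7%. GCCNNNGGC stood in 34%, 33.5% and 32%. All motifs were read on both strands, and matches of different motifs may overlap. Of the 98 windows of named genes that may be shown, 2 hold the octamer: SFRP2, a secreted WNT inhibitor that was higher with NANOG shRNA by 3.05, and SMAD3, a mediator of NODAL and activin signals that was lower by -0.92. They are printed in the direction of the gene with the octamer in capitals, in both cases on the opposite strand; a match of letters is no evidence that a factor binds there.
SFRP2, chr4:153789034-153789333, minus strand: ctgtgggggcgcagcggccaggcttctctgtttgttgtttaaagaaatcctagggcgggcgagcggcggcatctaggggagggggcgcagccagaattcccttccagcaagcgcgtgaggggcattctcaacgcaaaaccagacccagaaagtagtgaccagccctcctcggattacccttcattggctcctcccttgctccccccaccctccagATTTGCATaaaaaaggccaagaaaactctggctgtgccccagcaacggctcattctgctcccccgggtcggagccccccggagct
SMAD3, chr15:67065352-67065651, plus strand: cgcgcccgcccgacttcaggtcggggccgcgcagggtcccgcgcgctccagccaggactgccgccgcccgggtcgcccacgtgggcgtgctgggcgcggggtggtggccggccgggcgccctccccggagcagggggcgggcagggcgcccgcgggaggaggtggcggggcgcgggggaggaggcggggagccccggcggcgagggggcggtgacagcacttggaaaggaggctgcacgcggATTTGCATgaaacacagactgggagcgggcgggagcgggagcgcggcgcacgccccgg

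Transcription factors of trophectoderm and amnion were lower with NANOG shRNA nearly throughout. Of 26 tested, 24 were lower, 16 of them at least 2-fold, 0 were higher and 2 were not called, with a median of -1.43. TFAP2A, an AP-2 factor of trophectoderm, amnion and surface ectoderm, was at 7.38, 8.28 and 8.54 with NANOG shRNA and at 12.44, 12.10 and 11.66 with OCT4 shRNA, against a control mean of 6.82. It was therefore above control in both knockdowns, by 1.24 and 5.24, with no overlap between them. MEIS1, a homeobox cofactor, and MSX2, a target of BMP signals, differed by -3.02 and -2.83. GATA3, GRHL2, DLX3 and CDX2, factors of trophectoderm or surface epithelium, differed by -2.30, -2.21, -1.67 and -1.14. EOMES, a T-box factor, was the smallest of those named at -0.40, and the members not called were ID2 and TEAD4 (0.27). Without the OCT4 shRNA array of day 6, 1 member was higher. Against control, 24 of the 26 were higher with OCT4 shRNA and 6 with NANOG shRNA.

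Structural and secreted genes of amnion and trophoblast showed the same side. Of 26 tested, 21 were lower with NANOG shRNA, 2 were higher and 3 were not called, with a median of -1.63. Besides GABRP, EPAS1 and IGFBP7, TGFBI was at 8.54, 8.99 and 9.26 with NANOG shRNA and at 11.86, 13.98 and 14.28 with OCT4 shRNA. VTCN1, an immune checkpoint ligand of trophoblast and amnion, differed by -3.52. HEY1, a Notch and BMP target, was at 6.61, 7.61 and 9.11 with NANOG shRNA and at 12.16, 12.49 and 10.87 with OCT4 shRNA. CGA, the alpha chain of chorionic gonadotropin, was lower by -0.57, and the retroviral syncytin gene ERVW-1 was not called at -0.03. HLA-G, an antigen of invasive trophoblast, was higher with NANOG shRNA by 0.40 (adjusted p = 0.0102), which was lost without day 4 (0.0957), without day 5 (0.0647) or without its NANOG shRNA array of day 4 (0.0558). Both members higher, HLA-G and CGB5 (0.33), a chorionic gonadotropin chain, were lost without day 4, without day 5 or without the NANOG shRNA array of day 4. One at a time, leaving out the NANOG shRNA arrays of days 5 and 6 or the OCT4 shRNA arrays of days 4 and 5 left 1.

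Epithelial junction and keratin genes were lower with NANOG shRNA in 21 of 27 cases, higher in 1 and not called in 5, with a median of -1.06. KRT7, KRT8, KRT18, KRT19, KRT23 and PERP also stand in the list of amnion and trophoblast structural genes, so the counts of these lists are not independent. KRT8, a keratin of simple epithelia, was at 10.82, 10.98 and 11.21 with NANOG shRNA and at 13.77, 14.42 and 14.54 with OCT4 shRNA. KRT19, its partner in such epithelia, was at 11.79 ± 0.15 and 14.79 ± 0.05 (SD, n = 3 each), and its OCT4 shRNA values varied little between days. PKP2 and DSP, both of desmosomes, differed by -3.28 and -3.26, and CDH1, the epithelial cadherin, by -0.85. Dimmer DSP probes differed by -1.25 and -1.27. Against control, 17 of the 27 were higher and 3 lower with OCT4 shRNA, and 0 were higher and 9 lower with NANOG shRNA. CLDN11, a claudin of tight junctions, was the member higher with NANOG shRNA (0.59, adjusted p = 0.021), which was lost without day 5 (0.115), without day 6 (0.0963), and without the NANOG shRNA (0.148) or the OCT4 shRNA array (0.0505) of day 6. Regulators of mesenchymal transition were divided, with 9 of 16 lower, 5 higher and 2 not called, and 5 lower and 3 higher without day 5. Calls covered 87.5% of them, against 45.5% of all genes. Without day 6, 6 were lower, and 3 were higher without the NANOG shRNA array of day 5 or 6 or the OCT4 shRNA array of day 4 or 5. SNAI2, a repressor of epithelial genes, was at 6.34, 7.31 and 8.25 with NANOG shRNA and at 9.27, 11.47 and 11.52 with OCT4 shRNA. CDH2, neural cadherin, went the other way, at 11.89 ± 0.35 with NANOG shRNA and 10.45 ± 0.18 with OCT4 shRNA (SD, n = 3 each). CD44, a hyaluronan receptor, was lower with NANOG shRNA by -1.51 (at least 2.48-fold; adjusted p = 0.00654), a call lost without day 5 (0.118) or day 6 (0.0506).

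Genes of mesoderm, heart and smooth muscle were lower with NANOG shRNA in 20 of 28 cases, higher in 2 and not called in 6, with a median of -0.81 (-0.63 with dim members at their bound). The higher ones were TPM2 (0.66) and KDR (0.76), of which 1 was left without day 5 or its OCT4 shRNA array. ACTC1, cardiac actin, TBX3, a T-box factor, and PITX1, a homeobox factor, differed by -3.39, -2.46 and -1.73, while TAGLN, MYL9 and MYL7, muscle proteins, were not called at -0.06, -0.01 and -0.01. HAND1, ISL1, MSX2 and BMP4 of this list also stand in the trophectoderm, amnion or BMP lists. Of 40 collagen and matrix genes, 19 were lower with NANOG shRNA, 6 were higher (3 without day 5) and 15 were not called, with a median of -0.30. Calls covered 62.5% of them, against 45.5% of all genes. COL3A1, a fibrillar collagen, was at 6.43, 6.25 and 6.42 with NANOG shRNA, below background, and at 8.42, 11.02 and 11.60 with OCT4 shRNA, at least 13.7-fold lower with NANOG shRNA. COL6A3 was at 6.62 ± 0.16 with NANOG shRNA and 9.45 ± 1.90 with OCT4 shRNA (SD, n = 3 each), and its adjusted p of 0.000719 became 0.0586 without day 5. CCN2, a matricellular target of YAP and TGF-beta, was higher with NANOG shRNA by 1.07, with both knockdowns below control (by -1.04 and -2.11), a call lost in a fit of all 39 arrays (0.77, limma adjusted p = 0.0766). In that fit the OCT4 shRNA mean also took in day 7, which the NANOG shRNA mean lacks.

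Markers of fibroblasts, which a culture may carry over, overlap with the matrix genes. COL1A1, COL1A2, COL3A1, COL5A1, COL6A3, DCN and LUM stand in both lists, so the counts of these lists are not independent. Of 14 markers 12 were tested (FAP and POSTN were not), of which 8 were lower with NANOG shRNA, 2 higher and 2 not called. Their summed intensity was 6682 to 7304 with NANOG shRNA and 8276 to 27829 with OCT4 shRNA, against 7299 to 9884 with control virus. All 12 were above background on at least 1 OCT4 shRNA array, and 4 were below it on every NANOG shRNA and, likewise in number, on every control array. A probe had to exceed background on at least 3 of the 12 H1 arrays to be tested. Markers dim with both NANOG shRNA and control virus could thus enter only where OCT4 or SOX2 shRNA was bright. These counts therefore follow in part from the filter. THY1, a surface protein of fibroblasts and stem cells, was higher with NANOG shRNA (10.47 ± 0.13 against 9.20 ± 0.48, SD, n = 3 each), and PDGFRB, a receptor of fibroblasts, was not called at 0.11. DCN and LUM, 2 proteoglycans that the matrix and mesoderm lists also hold, were below background with NANOG shRNA and at 8.59 ± 0.78 and 10.55 ± 0.84 with OCT4 shRNA (SD, n = 3 each). The part of such cells in the results was not tested.

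Of 25 BMP genes tested, 14 were lower with NANOG shRNA (8 without day 5), 1 was higher and 10 were not called, with a median of -0.44. The share called was 60%, against 45.5% of all genes. The ligand BMP4 was at 6.42, 6.69 and 6.81 with NANOG shRNA and at 9.46, 9.05 and 9.52 with OCT4 shRNA, against a control mean of 6.21. The ligand BMP2 differed by -0.55, the receptor BMPR2 by -0.87, and the targets BAMBI, MSX1, DLX5 and ID1 by -4.08, -1.46, -1.39 and -1.12, whereas ID3, another target, was not called at 0.49, nor were the ligand BMP5 (0.07) and the targets ID2 (-0.44) and SMAD6 (-0.43). FST, a secreted inhibitor of activin and BMPs, was the member higher with NANOG shRNA, at 11.43, 12.55 and 13.00 against 10.10, 10.25 and 10.30 with OCT4 shRNA. It stood above control in both knockdowns, by 2.77 and 0.66. The count of higher members became 3 without day 4 or its NANOG shRNA array and 2 without its OCT4 shRNA array. NODAL and activin genes had 4 of 17 higher, 6 lower (3 without day 5, 4 without day 6 or either of its knockdown arrays) and 7 not called. Calls thus covered 58.8% of that list. DACT1, a member of this list and an adaptor that restrains WNT signals, was at 6.94 ± 0.28 under NANOG shRNA and 10.37 ± 0.39 under OCT4 shRNA (SD, n = 3 each). INHBE, an activin subunit, was at 8.64 ± 0.01 with NANOG shRNA and 6.63 ± 0.15 with OCT4 shRNA (SD, n = 3 each).

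WNT genes went both ways. Of 40 tested, 15 were higher, 11 lower (6 without day 5) and 14 not called, with a median of 0.09. The share called was 65%, against 45.5% of all genes. Among secreted inhibitors SFRP2 (3.05), FRZB (2.69), SFRP1 (2.56) and DKK1 (1.32) were higher with NANOG shRNA, DKK3 (-1.11) was lower, and NOTUM was not called at 0.01. Among receptors, FZD7, FZD5, FZD3, FZD9, ROR1 and FZD2 differed by 2.56, 1.70, 1.69, 1.60, 1.11 and 1.10, FZD6, ROR2 and LRP5 by -0.87, -0.76 and -0.42, and FZD1, FZD4, FZD8 and FZD10 were not called. The ligands WNT6, WNT5A, WNT5B and WNT4 were lower, at -1.47, -0.75, -0.55 and -0.45, and WNT10B was higher at 0.61. Also lower was WLS, the carrier that takes WNT proteins to the surface (-1.76). WLS was still moving with NANOG shRNA, at 9.04, 10.62 and 11.36 against 12.66, 11.90 and 11.75 with OCT4 shRNA, and both knockdowns were above the control mean of 7.45. SP5, a direct WNT target, was at 7.89, 9.82 and 9.91 with NANOG shRNA and at 7.21, 7.04 and 7.30 with OCT4 shRNA.

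Of 28 FGF pathway genes, 13 were higher with NANOG shRNA, 4 lower and 11 not called, so 60.7% were called against 45.5% of all genes. Without day 5, 7 were higher and 2 lower. The feedback inhibitors SPRY4 and DUSP6, which FGF and ERK signals induce, were at 11.07 ± 0.42 and 11.34 ± 0.10 with NANOG shRNA and at 8.17 ± 0.31 and 8.47 ± 0.29 with OCT4 shRNA (SD, n = 3 each). The receptor FGFR4 differed by 2.31 and FGFR1 by 1.24, and the ligand FGF2 by 0.50. FOS, an immediate early gene, was lower with NANOG shRNA by -1.11 (adjusted p = 0.00469), which was lost without day 5 (0.0659). Leaving out the OCT4 shRNA array of day 4 brought the lower members to 6. Among retinoic acid genes, 3 of 16 were higher (2 without day 5 or its NANOG shRNA array) and 7 lower, but 1 was lower without day 5, 4 without day 6 or the NANOG shRNA array of day 5, and 3 without the OCT4 shRNA array of day 5. Calls covered 62.5% of this list, against 45.5% of all genes. LRAT, which stores retinol, was higher with NANOG shRNA (7.74 ± 0.08 against 6.50 ± 0.11, SD, n = 3 each), and RARB, a retinoic acid receptor, was below background there and at 7.40 ± 0.17 with OCT4 shRNA. ALDH1A3, which makes retinoic acid, was lower with NANOG shRNA by -0.93, a call lost without day 5 (adjusted p = 0.0906).

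Axon guidance genes were called in 51.5% of cases, near the 45.5% of all genes, with 11 of 33 higher and 6 lower (4 without day 5). The ephrin EFNA1 was at 8.06, 7.86 and 7.54 with NANOG shRNA and at 11.95, 11.73 and 11.35 with OCT4 shRNA, and EFNB2 differed by -2.48. Their receptor family member EPHA4 was higher with NANOG shRNA (10.51 ± 0.75 against 8.72 ± 0.10, SD, n = 3 each) and above control in both knockdowns. Of 17 neural crest genes, 9 were lower, 5 higher and 3 not called, so 82.4% were called. TFAP2A, SNAI2 and MSX2 led the lower ones, while SOX8, SOX9 and SOX10 differed by 1.25, 0.94 and 0.85 and CDH6, a cadherin of crest and kidney, by 1.35. HOX genes and their cofactors had 7 of 11 lower and 2 higher, with HOXB2 and HOXB5, hindbrain and trunk genes, below background with NANOG shRNA and at least 3.77-fold and 2.73-fold lower there. Of 27 on the array 11 were tested, 81.8% of them were called, and the median was -0.73 (-0.26 with dim members at their bound). Members dim with NANOG shRNA could enter only where another arm was bright, so these counts follow in part from the filter. The count of higher members was 3 without day 4 or its NANOG shRNA array. PBX2, a HOX cofactor, was higher by 0.90. Of 12 mesendoderm genes, 5 were higher (3 without day 5 and without the day 5 array of either knockdown or the NANOG shRNA array of day 4) and 3 lower (1 without day 5 or its OCT4 shRNA array, 2 without day 6, either of its knockdown arrays or the NANOG shRNA array of day 5). Their share called was 66.7%, against 45.5% of all genes. FLRT3, a membrane protein of the primitive streak, was at 8.37 ± 0.24 with NANOG shRNA and 11.16 ± 0.35 with OCT4 shRNA (SD, n = 3 each), above the control mean of 6.67 in both. MESP1, a factor of early mesoderm, differed by 0.69, EOMES, which the trophectoderm list also holds, by -0.40, and FOXA2, a factor of endoderm, was not called at -0.22.

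Genes of the cell cycle were higher with NANOG shRNA by small amounts in large numbers. Of 36 mitosis genes 32 were higher, 0 lower and 4 not called, with a median of 0.75. Without day 5, 15 were higher, while over all genes the number higher went from 2897 to 1487. TOP2A, which untangles DNA, was at 12.40, 12.66 and 12.22 with NANOG shRNA and at 12.04, 10.95 and 10.40 with OCT4 shRNA. PTTG1, the securin, AURKB, a mitotic kinase, and BUB1, a checkpoint kinase, differed by 1.20, 1.14 and 1.13. DNA replication genes had 28 of 34 higher (14 without day 5), 1 lower and 5 not called, with a median of 0.60. GINS2, TYMS, FEN1 and MCM10, which act at forks or in making thymidylate, differed by 1.16, 1.09, 1.00 and 0.97. RFC2, a clamp loader subunit, was the lower member at -0.38 (adjusted p = 0.0271), a call lost without day as a block (0.0522) and without day 5 (0.0612), without day 6 (0.221), and without the NANOG shRNA array of day 6 (0.161) or the OCT4 shRNA array of day 4 (0.0871) or day 6 (0.0924). Against control, 34 of the mitosis genes were lower with OCT4 shRNA and 4 with NANOG shRNA. Among cyclins and inhibitors, called in 47.6% of cases, CDK6, a G1 kinase, was lower with NANOG shRNA (7.35 ± 0.37 against 9.86 ± 0.41), as was the inhibitor CDKN1C (8.04 ± 0.17 against 9.48 ± 0.47), and MYCN (12.05 ± 0.10 against 10.34 ± 1.10) was higher (SD, n = 3 each). E2F2, an S phase regulator, differed by 1.43. Lower members of that list numbered 2, and 3 without day 4 or 4 without its OCT4 shRNA array.

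Amino acid, cholesterol and fatty acid genes mostly shared that side, while hypoxia and glycolysis genes were divided. Of 28 genes of amino acid synthesis, transport and stress, 20 were higher with NANOG shRNA, 1 lower and 7 not called, with a median of 0.92. ASNS was at 12.30, 12.34 and 12.10 with NANOG shRNA and at 9.13, 8.97 and 8.98 with OCT4 shRNA, against a control mean of 11.48. SLC7A3, an arginine and lysine transporter, AASS, which breaks down lysine, and PSAT1, of serine synthesis, differed by 2.78, 2.75 and 2.45. ATF3, a stress-induced transcription factor, was the lower member (-1.28, adjusted p = 0.00205), a call lost without day 5 (0.102). Lower members numbered 2 without day 4 and 3 without its OCT4 shRNA array. Cholesterol and fatty acid genes had 19 of 22 higher, 0 lower and 3 not called, with a median of 0.69, led by INSIG1 (1.76), a brake on sterol synthesis, DHCR7 (1.73), HMGCS1 (1.52) and MSMO1 (1.48). Against control, 11 of these were higher with NANOG shRNA, and 8 were lower and 1 higher with OCT4 shRNA. Hypoxia and glycolysis genes had 11 of 25 higher and 5 lower, against 5 higher and 1 lower without day 5. Their share called was 64%, against 45.5% of all genes. ALDOC and ENO2, glycolytic enzymes, differed by 2.03 and 1.51, ADM, a hypoxia-induced peptide, by 1.25, and NDRG1, a stress gene, was at 7.68 ± 0.22 with NANOG shRNA and 10.70 ± 0.20 with OCT4 shRNA (SD, n = 3 each). The lower members of this list numbered between 1 and 3 whenever any other day, or any knockdown array but the OCT4 shRNA array of day 4, was left out.

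The remaining lists were divided. Of 27 genes of the insulin-like growth factor axis and imprinted genes, 10 were higher and 9 lower (5 and 6 without day 5). Calls covered 70.4% of them, against 45.5% of all genes. IGFBP3 and IGFBP5, binding proteins of the growth factors, were at 8.59 ± 0.40 and 10.13 ± 0.11 with NANOG shRNA and at 12.45 ± 0.45 and 13.36 ± 0.53 with OCT4 shRNA (SD, n = 3 each), and H19, an imprinted RNA, was at least 5.39-fold lower with NANOG shRNA, while DLK1, an imprinted surface protein, was higher by 2.76. Chromatin regulators were called in 53.8% of cases, with 11 of 26 higher and 3 lower (7 and 2 without day 5, and 2 lower without its OCT4 shRNA array). JARID2, a Polycomb partner, differed by 1.20 and SMARCA2, a remodelling ATPase, by -2.04. Neuropeptide and synaptic genes had 12 of 22 higher (8 without day 5) and 4 lower, with 72.7% called. CHGA and SCG5, of secretory granules, differed by 2.71 and 1.50, NPY, a neuropeptide, was at least 3.49-fold lower, and VGF, a secreted nerve growth factor target, was lower by -1.74, a call lost without day 5 (adjusted p = 0.0626). Interferon genes were called in 41.7% of cases, below the share of all genes, with TRIM22, IFI6 and ISG15 higher by 2.71, 1.80 and 1.71 and IFI16, a DNA sensor, lower by -1.74. The counts were 8 higher and 2 lower, or 4 and 1 without day 5. Higher members numbered 5 without the NANOG shRNA array of day 6 or the OCT4 shRNA array of day 5, and lower ones 3 without day 4 and 1 without its NANOG shRNA array or that of day 5. Second probes of IFI6, PMAIP1 and TP53I3 gave 0.03, 0.01 and 0.02, so these genes rest on 1 probe. The same holds for RFC2, whose second probe gave -0.04, while the other probes gave 0.68, 0.15 and 2.32 for SPRY4 and 0.97 and -0.04 for MSMO1. Genes of p53 were called in 38.1%, with 4 higher (2 without day 5) and 4 lower (6 without day 4 or its OCT4 shRNA array). SFN, PHLDA3 and TP53I3, p53 targets, differed by -1.27, -0.95 and -0.87, and PMAIP1, which promotes cell death, by 1.13. Of 7 metallothioneins, 2 were lower, with 0 without day 4, day 5 or any knockdown array of those days, 6 without day 6 or its OCT4 shRNA array, and 3 without its NANOG shRNA array. Calls covered 28.6% of them, below the share of all genes. Against control, 7 were lower with NANOG shRNA (median -2.11) and 5 with OCT4 shRNA (median -1.42). With H9 in place of H1, 7 were lower (median -2.77). Of 18 blood and endothelial markers 5 were tested, with VWF at 7.67, 9.70 and 9.23 under NANOG shRNA and at 6.60, 6.48 and 6.19 under OCT4 shRNA, TEK and KDR higher by 1.24 and 0.76 and RUNX1 lower by -0.91; PECAM1 and CDH5, which define endothelium, were not tested for want of signal.

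**Figure D4:**
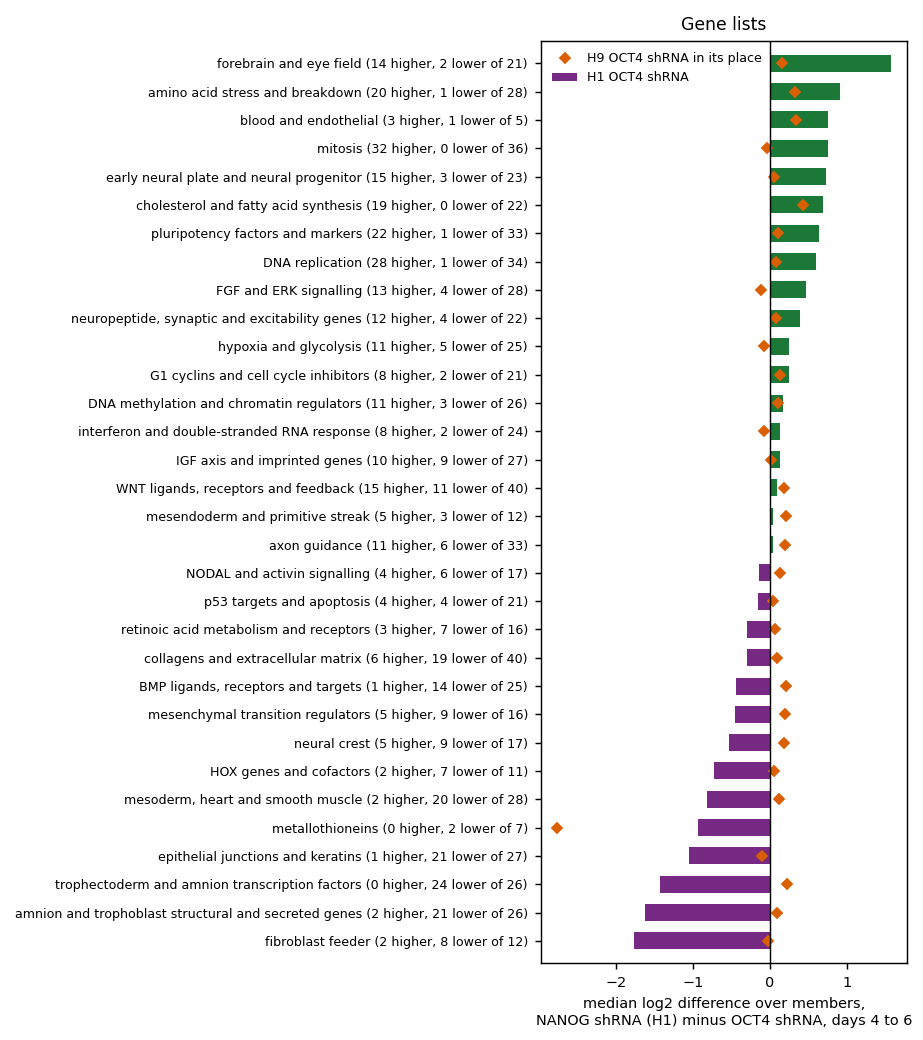
Median log2 difference over the tested members of each of 32 gene lists, NANOG shRNA in H1 minus OCT4 shRNA in H1 (bars, green above and purple below 0), days 4 to 6, with the counts called higher and lower; orange diamonds give the median where H9 cells with OCT4 shRNA take the place of H1. Forebrain and eye field genes stand at 1.57 and trophectoderm and amnion transcription factors at -1.43 in H1, against 0.16 and 0.22 with H9. Calls in H1 covered 45.5% of all genes, 69.7% of pluripotency, 76.2% of forebrain, 78.3% of early neural and 78.6% of mesoderm genes. They covered 81.5% of epithelial genes, 92.3% of trophectoderm and amnion factors and 88.5% of amnion and trophoblast structural genes. Shares were 85.3% for DNA replication, 88.9% for mitosis, 75% for amino acid and 86.4% for cholesterol genes. They were 83.3% for fibroblast and 80% for blood markers.

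In H9 cells OCT4 shRNA gave other levels. On days 4, 5 and 6 POU5F1 was at 9.97, 9.76 and 9.04 in H9, between the NANOG shRNA and OCT4 shRNA levels of H1, and SOX2 was at 12.70, 12.97 and 12.82. HAND1 was below background at 5.89, 6.02 and 5.88 in H9 with OCT4 shRNA, against 14.05, 14.13 and 13.86 in H1 with OCT4 shRNA. TFAP2A was below background too, at 6.09, 6.16 and 6.16, and GABRP was at 7.57, 7.69 and 6.98. CYP26A1 was at 11.05, 10.97 and 10.51 and ZIC2 at 13.10, 12.96 and 12.64 in H9. With H9 in place of H1 the same fit called 4072 genes, of which 184 were at least 2-fold higher and 178 at least 2-fold lower with NANOG shRNA, and of the 1062 genes at least 2-fold apart in H1 and tested there, 552 were called and 738 had the same sign. The medians became 0.22 for trophectoderm and amnion transcription factors, 0.09 for amnion and trophoblast structural genes, 0.10 for pluripotency genes and -0.04 for mitosis genes. They were 0.44 for cholesterol genes, against 0.69 with H1, and 0.32 for amino acid genes, against 0.92 with H1. No H9 control arm was analysed here, so the cell line and the size of the POU5F1 difference cannot be told apart here. The H9 values were used after a repair of their row order, and the check of normalization given below covers H1 arrays only.

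**Figure D5:**
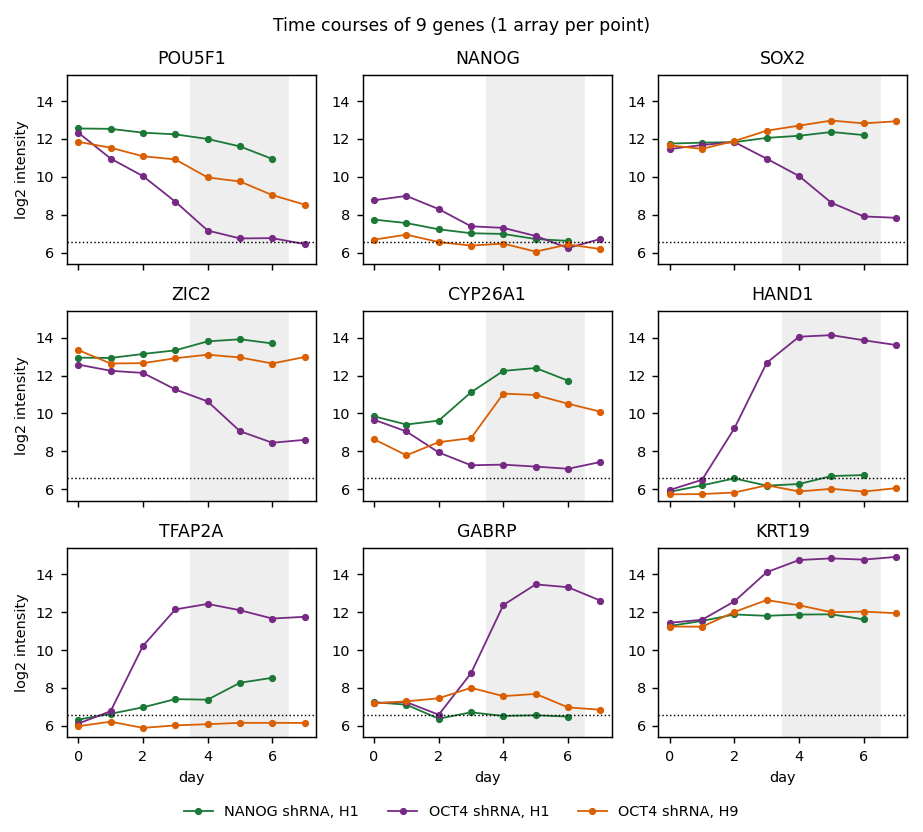
Log2 intensity by day for 9 genes in H1 with NANOG shRNA (green, days 0 to 6), H1 with OCT4 shRNA (purple, days 0 to 7) and H9 with OCT4 shRNA (orange, days 0 to 7), 1 array per point; the shaded days are 4 to 6 and the dotted line is the background level. In H1 with OCT4 shRNA HAND1 was at 9.22 on day 2 and 14.05 on day 4, while in H9 it stayed between 5.73 and 6.21.

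Timing differed among the leading genes of the OCT4 shRNA arm in H1. HAND1, ISL1 and TFAP2A were already at 9.22, 9.04 and 10.22 on day 2, when they were at 6.57, 6.39 and 6.98 with NANOG shRNA. GABRP, TRIM55 and IGFBP3 were still at 6.59, 6.00 and 7.12 on day 2 and stood at 12.38, 10.87 and 11.96 on day 4. COL3A1, COL6A3 and CD44 came later, at 8.42, 7.27 and 6.47 on day 4 and 11.60, 10.77 and 9.12 on day 6. POU5F1 was at 10.97 on day 1 and 8.69 on day 3 in that arm, and SOX2 at 11.84 on day 2 and 10.96 on day 3. With NANOG shRNA, TFAP2A, SNAI2, HEY1 and VWF were higher on day 6 (8.54, 8.25, 9.11 and 9.23) than on day 4 (7.38, 6.34, 6.61 and 7.67), each with 1 array per day.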

How the data were processed

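RNA of H1 and H9 cells was measured on Illumina bead arrays. The authors' deposited intensity values are linear. For the H1 arrays in use they were already quantile normalized, as the values show (these arrays share at least 98.4% of sorted values with the first, medians 135.619 to 135.686, lowest value 91.0, so background was not subtracted). The H9 arrays are not covered by these values. The array software is not given in the sources used here. The deposited intensities were corrected with normexp (offset 50) and turned to log2. Of 47323 probes, 30113 had 1 gene symbol, 8 several and 17202 none in the platform annotation. Background was 145 intensity units, the 99th percentile estimated from 457 olfactory receptor probes. Probes above it on at least 3 of 12 H1 arrays were kept, with 1 probe per gene, the one with the highest mean. A gene dim on all arrays of 1 knockdown could thus enter only through brighter arrays of other arms. The offset, background and filter were set with the files in view.

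limma 3.58.1 (R 4.3.3) was fitted to the 12 H1 arrays of days 4 to 6 of the 4 arms (NANOG shRNA, OCT4 shRNA, SOX2 shRNA and control virus) with arm and day as terms and Benjamini-Hochberg adjustment, and the fit was tested on simulated data. Day is the pairing number, and the labels give it; correlations of same-day deviations were 0.11, 0.023 and 0.15. The members and gene lists were chosen with earlier results of these data known. Genes named are the 3 targeted genes, the 12 largest calls each way with the same sign on each day, and for each list up to 4 largest such calls and the largest call against the list's majority. List members beyond these, the promoter motifs and the timing examples were chosen after their values were seen. Promoter windows came from RefSeq.

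From a break onward, the H9 values sit 2 rows off their probe names: their correlation with H1 was 0.985 before the break, 0.224 after it as deposited and 0.989 once moved, and 30 probes at the break were left out. The NANOG shRNA array of day 7 (median 6.80, highest 3171) was left out as being on another scale. A table of values before normalization has 80 value columns whose names match no one sample, and it was not used. Slide and scan were not analysed here. Alternatives covered the block, the arrays in the fit, the correction, the filter, the probe rule, weights and leaving out days and arrays.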

Additional observations from a re-analysis of the deposited data

Results flagged for a closer look

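The difference between the knockdowns changed between days 0 and 1 and days 4 to 6 for the 4 genes given here. Limma's test of that change (days 4 to 6 minus days 0 and 1) was called for each. The estimates turned in sign for HAPLN1, IGFBP3 and HESX1 and shrank for NANOG. Over all genes only 1 was called between the knockdowns on days 0 and 1, so the early signs are estimates and a reversal was not tested. HAPLN1 differed by 0.50 early and by -4.42 late, a change of -4.93 (limma adjusted p = 1.22e-05). IGFBP3 differed by 0.61 early and -3.86 late, a change of -4.47 (adjusted p = 8.09e-10). HESX1 differed by -0.67 early and 3.07 late, a change of 3.74 (adjusted p = 2.62e-06). NANOG differed by -1.22 early, when it was at 7.75 and 7.56 with NANOG shRNA and at 8.765 and 8.996 with OCT4 shRNA, and by -0.04 late, a change of 1.19 (adjusted p = 0.0212). The early differences rest on 2 arrays per arm.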

How the results depend on the processing

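Of 127 genes named, all tested kept their direction under the following processing alternatives, other than leaving libraries out: no replicate block, the 6 knockdown arrays alone, all 39 arrays, log2 of the deposited intensity, an offset of 16, a further quantile step, median centring, no filter, a filter at 6 of 12 arrays (which left 114 of the 127), the mean over probes and array weights. All but the fit of all 39 arrays used only H1 arrays of days 4 to 6. In the fit of all 39 arrays the OCT4 shRNA mean also took in day 7, which the NANOG shRNA mean lacks, so its day windows differ between the knockdowns. RFC2 lost its call in 4 of the alternatives and CCN2 with all 39 arrays (0.77, limma adjusted p = 0.0766). Without day as a replicate block, 5385 genes were called in place of 5708, all 1063 genes called at least 2-fold apart were still called, and RFC2 was the named gene that lost its call. Over the other processing alternatives the number called lay between 4796 and 6959, and the genes at least 2-fold apart ranged over 398 higher and 394 lower on the deposited intensities and 800 higher and 701 lower with an offset of 16.

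With 1 day or 1 knockdown array left out, 2861 to 6000 genes were called, 1487 to 3052 higher and 1374 to 2948 lower, the lowest without day 5 in all arms. The sign of NANOG, which was not called, turned in 5 of these fits, and its value ran over -0.24 to 0.13 with libraries left out (0.11 without day 4, 0.028 without day 5, 0.0042 and 0.010 without the NANOG or the OCT4 shRNA array of day 5). Of the named genes, 10 lost their call without day 5, 3 without day 6 and 1 without day 4. With days 0 and 1 subtracted, 2992 genes were called, 1464 higher and 1528 lower, and the values turned for NANOG (1.19, limma adjusted p = 0.0212) and for the medians of NODAL and activin genes (0.41) and p53 targets (0.072). The calls of 12 named genes were lost there, with limma adjusted p between 0.0506 (HES4) and 0.393 (ALDH1A3), among them TOP2A (1.05, adjusted p = 0.0711); the cause was not tested.

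H9 cells with OCT4 shRNA in place of H1 gave 184 genes at least 2-fold higher and 178 at least 2-fold lower, and 47 named genes turned, of which 11 were called in the turned direction, while 28 others lost their call. The 11 were NANOG, SOX2, SOX21, HAPLN1, SOX3, TFAP2A, MSX2, KRT8, SFN, ATF3 and SCG5, and the others that turned were not called there. The 47 were NANOG (0.45), SOX2 (-0.59), SOX21 (-1.35), HAND1 (0.65), TRIM55 (0.093), ISL1 (0.25), EPAS1 (0.16), TGFBI (0.36), HAPLN1 (1.45), BAMBI (0.20), ZFP42 (0.0043), SOX3 (-0.68), EFNA1 (0.15), SLIT3 (0.10), TFAP2A (1.93) and SNAI2 (0.34). Further ones were MSX2 (0.61), HEY1 (0.026), DACT1 (0.18), FRZB (-0.34), WLS (0.70), FLRT3 (0.47), COL6A3 (0.018), PKP2 (0.27), KRT8 (0.38), CLDN11 (-0.25), MEIS1 (0.13), HOXB2 (0.14), HOXB5 (0.049), PBX2 (-0.10), ALDH1A3 (0.17) and GINS2 (-0.026). The others were MCM10 (-0.016), AURKB (-0.00071), BUB1 (-0.30), SFN (0.73), PMAIP1 (-0.13), TP53I3 (0.14), AASS (-0.037), ATF3 (0.50), ALDOC (-0.22), ISG15 (-0.25), SMARCA2 (0.0704), JARID2 (-0.27), SCG5 (-0.61), DCN (0.091) and RUNX1 (0.017). The medians that turned were those of neural crest (0.18), trophectoderm and amnion transcription factors (0.22), amnion and trophoblast structural and secreted genes (0.094), BMP ligands, receptors and targets (0.20), NODAL and activin signalling (0.13), FGF and ERK signalling (-0.11), mesoderm, heart and smooth muscle (0.12), collagens and extracellular matrix (0.094), mesenchymal transition regulators (0.20), HOX genes and cofactors (0.049), retinoic acid metabolism and receptors (0.0700), mitosis (-0.036), p53 targets and apoptosis (0.044), hypoxia and glycolysis (-0.077) and interferon and double-stranded RNA response (-0.0796); the cause was not tested. The number of arrays limits the precision, genes near background have bounds only, and the fit has 1 time course per arm.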
